A study of Mus musculus with 2 samples.

Results

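Ribosome biogenesis genes encode the proteins that transcribe, modify, cut and assemble ribosomal RNA into ribosome subunits, and 38 of them were described here in natural killer (NK) cells of the mouse brain. They were chosen by symbol, with earlier results of these data known, and all 38 had a row in both libraries, among 31053 genes. The cells came from untreated 8-month-old females, were isolated by flow sorting, and went into 10x Genomics libraries that capture the 5′ end of transcripts. One genotype was 3XTg-AD, a mouse model of Alzheimer's disease whose alleles include mutant human APP and MAPT transgenes, and the other was wildtype C57BL/6, with 1 library of each. The labels give neither the promoters of the transgenes, nor the strain background of 3XTg-AD, nor how many mice were pooled. With 1 library per genotype there is no replicate, no test was made, and genotype, preparation and animal cannot be told apart. Every ratio below is one library over the other, or one set of barcodes over another, with an exact 95% interval that covers counting error only.

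Ribosomal RNA is made by RNA polymerase I in the nucleolus as a long precursor. Small nucleolar ribonucleoproteins (snoRNPs) guide its methylation (box C/D) and its conversion of uridine to pseudouridine (box H/ACA), while separate sets of assembly factors build the small and the large subunit. Many of these genes are targets of the transcription factor Myc, and in NK cells cytokine stimulation raises Myc, cell growth and the cytotoxic protease granzyme B (Gzmb).

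Myc binds the E-box CACGTG with its partner Max, so members whose promoters hold these letters are shown with the stretch around them. RefSeq promoters on GRCm38.p6, from 250 bases before to 50 bases after the gene's start, were at hand for 33 of the 38 members. The letters, which read the same on both strands, were in 7 of the 33 (21.2%), against 8.09% of 27025 genes. In the 250 bases before the start they were in 1 of 33 members (3.03%), against 6.86% of genes, and in the 50 bases after it in 6 of 33 (18.2%), against 1.28% of genes. The capitals mark the E-box.
Imp4, chr1:34439696-34439725, plus strand: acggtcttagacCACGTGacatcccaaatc
Pes1, chr11:3963965-3963994, plus strand: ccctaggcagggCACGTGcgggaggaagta
Pno1, chr11:17211540-17211564, minus strand: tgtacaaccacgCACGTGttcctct
Tsr1, chr11:74898092-74898121, plus strand: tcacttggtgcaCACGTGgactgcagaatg
Utp20, chr10:88826765-88826789, minus strand: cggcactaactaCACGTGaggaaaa
Utp4, chr8:106893643-106893672, plus strand: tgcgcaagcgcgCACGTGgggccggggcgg
Wdr43, chr17:71616220-71616249, plus strand: cgcccgggcgaaCACGTGgctgccgcggag
Imp4 is the member with the match before the start, and the other 6 have it after the start. A match is a run of letters, not a measured site, and no binding was measured here. The ratios of these 7 genes between libraries, given below, lay on both sides of 1.

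The files held 1695 barcodes of the 3XTg-AD and 1709 of the wildtype library, with 5468455 and 5559995 unique molecular identifiers (UMIs, each counting 1 captured transcript). After filters on quality, doublets and other cell types, 1521 and 1485 barcodes were taken as NK, with 4637603 and 4616158 UMIs and medians of 2782 and 2863 UMIs per barcode. They carried the NK receptor gene Ncr1 at 2202 and 1640 counts per 1000000 UMIs (CPM) and the NK transcription factor gene Eomes at 237 and 216 CPM. The T cell marker list summed to 121 CPM in 3XTg-AD and 120 CPM in wildtype NK barcodes, the B cell list to 50.5 and 45.7, the microglia list to 95.7 and 59.4, the neutrophil list to 6.68 and 0, and the erythroid list to 0.216 and 17.3. NK barcodes with 10 or more UMIs of an interferon gene list numbered 2 and 43, and 1 barcode sequence was found in both libraries.

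In NK barcodes, most members were lower in the 3XTg-AD library, by a small factor. Their UMIs summed to 11707 in 3XTg-AD and 13627 in wildtype NK barcodes, which is 25.2 and 29.5 per 10000 UMIs, a ratio of 0.855 (0.834 to 0.877). Of the 36 members with 50 or more UMIs over both libraries, 28 had a ratio under 1, as did 40.9% of the 8555 genes measured. Their median log2 ratio was -0.26, against 0.05 over all measured genes. The intervals of 19 members lay below 1, those of 17 held 1, and 0 lay above 1. Polr1b, with 19 and 25 UMIs, and Rrp12, with 8 and 18, did not reach the minimum of 50. Few differences were large: 4 of 36 members were at least 1.5-fold lower, against 3.59% of measured genes, and 0 were at least 1.5-fold higher, against 4.71%. With ILC1-like barcodes, described below, kept in the sums, 0 of 37 members were 1.5-fold lower, against 3.51% of genes.

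The box C/D proteins were all under 1. Fbl, the methyltransferase fibrillarin, had 342 UMIs (73.7 CPM) in 3XTg-AD and 396 (85.8 CPM) in wildtype NK barcodes, a ratio of 0.860 (0.742 to 0.996). Nop58, a scaffold of the same particle, had 282 and 351 UMIs, a ratio of 0.80 (0.681 to 0.938). Its fellow scaffold Nop56 was at 0.863, with an interval from 0.701 to 1.06 that holds 1.

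The 4 box H/ACA proteins were also under 1. Nhp2, a core protein of this particle, had 508 UMIs (110 CPM) in 3XTg-AD and 661 (143 CPM) in wildtype NK barcodes, a ratio of 0.765 (0.680 to 0.860). Nop10, the smallest core protein, was far more abundant, with 1612 and 1731 UMIs and a ratio of 0.927 (0.866 to 0.993). Gar1 was at 0.788 (0.644 to 0.963), and the pseudouridine synthase Dkc1, with 175 and 206 UMIs, at 0.846 (0.687 to 1.04). Their sum had a ratio of 0.872 (0.826 to 0.921), close to that of box C/D at 0.838 (0.762 to 0.922), and the intervals overlap.

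The nucleolar phosphoproteins held the most UMIs of all roles and each had an interval below 1. Npm1, the histone chaperone nucleophosmin, had 2770 UMIs (597 CPM) in 3XTg-AD and 3287 (712 CPM) in wildtype NK barcodes, a ratio of 0.839 (0.797 to 0.883). Ncl, nucleolin, which binds ribosomal RNA precursors, had 1223 and 1453 UMIs, a ratio of 0.838 (0.776 to 0.905). Npm3, a relative of nucleophosmin, was at 0.829 (0.743 to 0.925), and Nolc1, a chaperone of snoRNPs, with 202 and 277 UMIs, was lowest of this role at 0.726 (0.602 to 0.873). Npm1 has processed copies in the mouse genome, so its counts are uncertain. Without Npm1, Ncl, Nop10 and Npm3, the ratio of the summed members was 0.851 (0.821 to 0.882), about as low as with these abundant genes.

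The RNA polymerase I subunits were too sparse to compare. Polr1a, the largest subunit, had 39 UMIs in 3XTg-AD and 34 in wildtype NK barcodes, a ratio of 1.14 with an interval from 0.702 to 1.86.

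The small subunit factors ranged most widely. The lowest of those measured act late. Tsr1, needed for late precursors in the cytoplasm, had 47 UMIs (10.1 CPM) in 3XTg-AD and 73 (15.8 CPM) in wildtype NK barcodes, a ratio of 0.641 (0.434 to 0.937). Pno1, the partner of the nuclease Nob1, had 99 and 152 UMIs, a ratio of 0.648 (0.498 to 0.841). Nob1, which makes the final cut of the small subunit RNA, had 130 and 185 UMIs and a ratio of 0.699 (0.555 to 0.880), short of the 1.5-fold limit. Bysl, another late factor, had 113 and 118 UMIs, and its interval from 0.730 to 1.24 held 1, so this stage was not uniform.

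Factors of the early small subunit precursor lay on both sides of 1. Esf1 was at 0.753 (0.629 to 0.902) and Nop14 at 0.782 (0.632 to 0.966), both below 1 with their intervals. Wdr75, with 114 UMIs in 3XTg-AD and 91 in wildtype NK barcodes, had the highest ratio of all members, 1.247 (0.938 to 1.66). Utp14a was at 1.14 (0.883 to 1.46), Imp4, which binds the U3 snoRNA, at 1.11 (0.948 to 1.3), and Heatr1 at 1.05 (0.780 to 1.41), and each interval held 1. Utp20, Utp4, Rrp9 and Wdr43 had ratios of 0.727, 0.825, 0.873 and 0.971, with intervals that held 1. Of the genes with an E-box shown above, Pno1 and Tsr1 were therefore among the lowest and Imp4 and Pes1 above 1.

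The large subunit factors also split. Rrp1b, an RRP1 relative of the nucleolus, had 66 UMIs in 3XTg-AD and 101 in wildtype NK barcodes, a ratio of 0.650 (0.470 to 0.896). Rrp15 had 90 and 136 UMIs, a ratio of 0.659 (0.499 to 0.866). Rrs1, which helps to bring the 5S particle into the subunit, had 134 and 198 UMIs and a ratio of 0.674 (0.537 to 0.843), the nearest member outside the 1.5-fold limit. Gnl3, the GTPase nucleostemin, was at 0.759 (0.611 to 0.941) and Mrto4, a placeholder for a stalk protein, at 0.765 (0.624 to 0.937). Nop16 was at 0.799 and Ebna1bp2 at 0.969, with intervals that held 1. Bop1, Pes1 and Wdr12, which form a single complex, were at 1.15, 1.10 and 1.05, and the interval of each held 1.

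**Figure D1:**
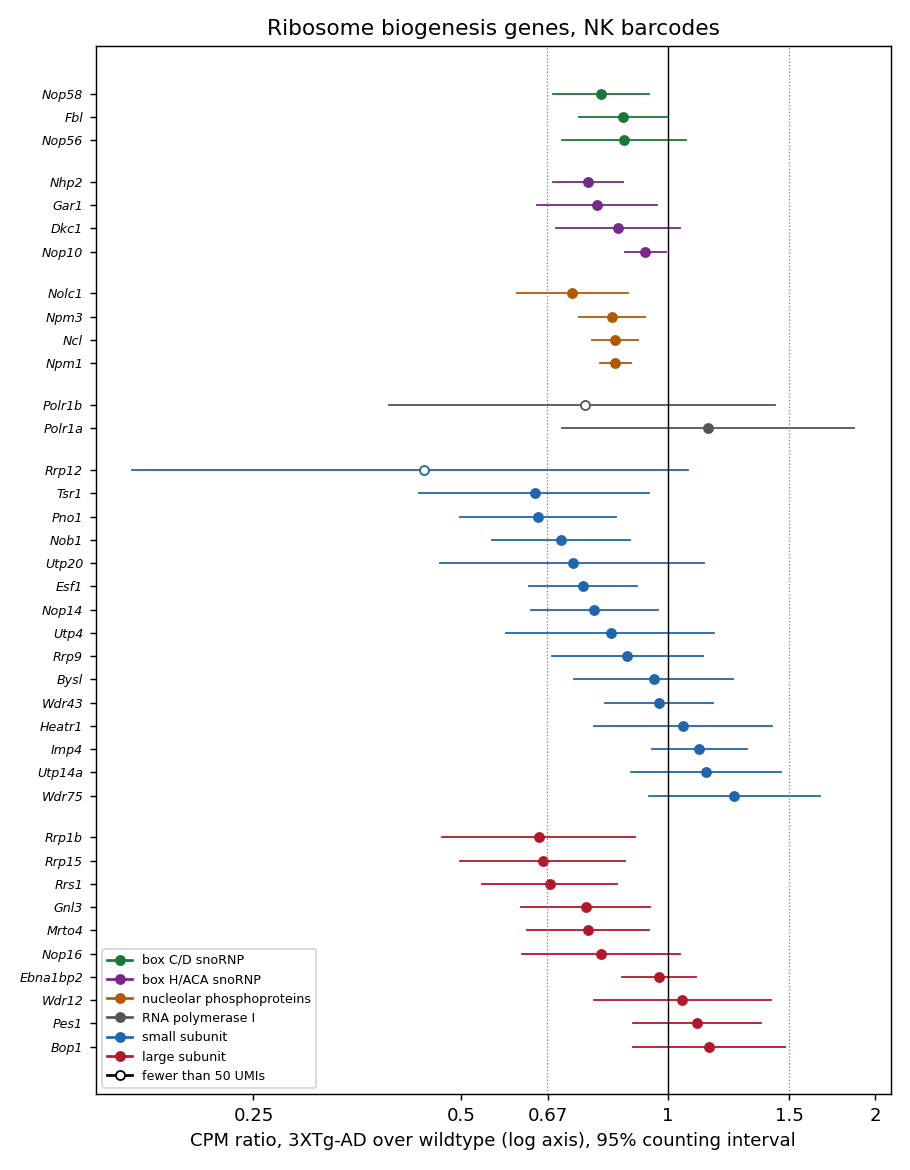
CPM ratio of each of the 38 members in NK barcodes, 3XTg-AD over wildtype, on a log axis, grouped by role and ordered by ratio within it. Points are ratios, lines are exact 95% counting intervals, open points have fewer than 50 UMIs, and dotted lines mark 1.5-fold; 28 of the 36 measured members lie left of 1 and 8 right of it.

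Exons of 18 members lie under a gene on the opposite strand, among them Pno1 under Wdr92, Tsr1 under Srr and Rrp1b under Hsf2bp, and the labels do not say whether counting used strand. On the same strand, 0 members lie under another gene.

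At matched depth the ratio was closer to 1. With each barcode thinned to 1400 UMIs, which left out 86 3XTg-AD and 120 wildtype NK barcodes as shallower, members averaged 3.40 ± 2.23 UMIs per 3XTg-AD barcode and 3.80 ± 2.83 per wildtype barcode (SD over 1435 and 1365 barcodes, which are not replicates). The ratio was then 0.894 (0.860 to 0.930), and 31 of 36 members stayed on their side of 1. Of the 32 that reached 50 UMIs, 0 were 1.5-fold lower, against 3.38% of genes. Both medians were 3 UMIs.

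As a set, other ribosome biogenesis genes that are not members did not show this shift. Members and lists were chosen with earlier results of these data known, so the contrast does not make the shift particular to the members. Past 1.5-fold were 5 of the 103 in NK barcodes. Of these, 2 were higher in 3XTg-AD, against 4.71% of all measured genes, and 3 lower, against 3.59%. The median log2 ratio of the 103 genes was -0.01, and their sum had a ratio of 0.988 (0.969 to 1.01). Those past the fold included Rcl1, with 64 UMIs in 3XTg-AD and 125 in wildtype barcodes (0.510, 0.371 to 0.694), and Taf1b, a factor of RNA polymerase I, with 238 and 151 (1.57, 1.27 to 1.94). Cytosolic ribosomal protein genes, the products assembled by this pathway, had 78 of 81 measured genes under 1, against 40.9% of all measured genes. Their summed ratio was 0.896 (0.894 to 0.899), with 0 past 1.5-fold. The snoRNA host genes summed to a ratio of 0.857 (0.812 to 0.904) over 6 genes in the files, of which Rack1 had 1720 and 2102 UMIs.

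Other growth lists were near 1. Translation factors were at 0.985 (0.976 to 0.995), tRNA synthetases at 0.991 (0.951 to 1.03), RNA polymerase III subunits at 1.0 (0.955 to 1.05), nucleotide and polyamine synthesis at 0.974 (0.943 to 1.01) and mitochondrial ribosomal proteins at 0.970 (0.954 to 0.986). Chaperonins and nuclear transport were higher, at 1.10 (1.07 to 1.13). Heat shock genes were at 1.87 (1.84 to 1.91), division genes at 1.35 (1.24 to 1.46) and interferon genes at 0.645 (0.623 to 0.668). Without the barcodes with the largest heat shock share the ratio of the members was 0.855, without dividing barcodes 0.853 and without interferon-high barcodes 0.848.

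Myc and Gzmb, against which the members were set next, were both lower in the 3XTg-AD library. Myc had 139 UMIs (30.0 CPM) in 3XTg-AD and 266 (57.6 CPM) in wildtype NK barcodes, a ratio of 0.520 (0.421 to 0.641). Gzmb had 7341 UMIs (1583 CPM) and 13964 (3025 CPM), a ratio of 0.523 (0.509 to 0.538).

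Within each library, the mean of the members was higher in barcodes with more Gzmb, at matched depth. In 3XTg-AD barcodes with 0 to 2, 3 to 5, 6 to 10, 11 to 20 and over 20 Gzmb UMIs per 1400, members averaged 3.30, 3.49, 3.87, 4.14 and 5.0 UMIs, over 995, 312, 103, 21 and 4 barcodes. In wildtype barcodes of the same ranges they averaged 3.45, 3.80, 4.18, 5.33 and 6.55 UMIs, over 876, 238, 120, 80 and 51 barcodes. The means climb in both libraries, and the last 3XTg-AD range holds only 4 barcodes. Medians over the same ranges were 3, 3, 3, 3 and 4.5 UMIs in 3XTg-AD, so up to 20 Gzmb UMIs only the mean climbed there. In wildtype the medians were 3, 3, 4, 4 and 5. Before thinning, barcodes with more Gzmb were also deeper. Median UMIs in the 0 to 2 and 11 to 20 ranges were 2799 and 3556 in 3XTg-AD, and 2854.5 and 3560 in wildtype. The part of this in the climb was not tested. The Spearman correlation between members and Gzmb over barcodes was 0.06 in 3XTg-AD (n = 1435) and 0.13 in wildtype (n = 1365), and between members and Myc 0.05 and 0.04, weak values from sparse counts. Without Npm1, Ncl, Nop10 and Npm3, the correlation with Gzmb was 0.03 in 3XTg-AD and 0.18 in wildtype.

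**Figure D2:**
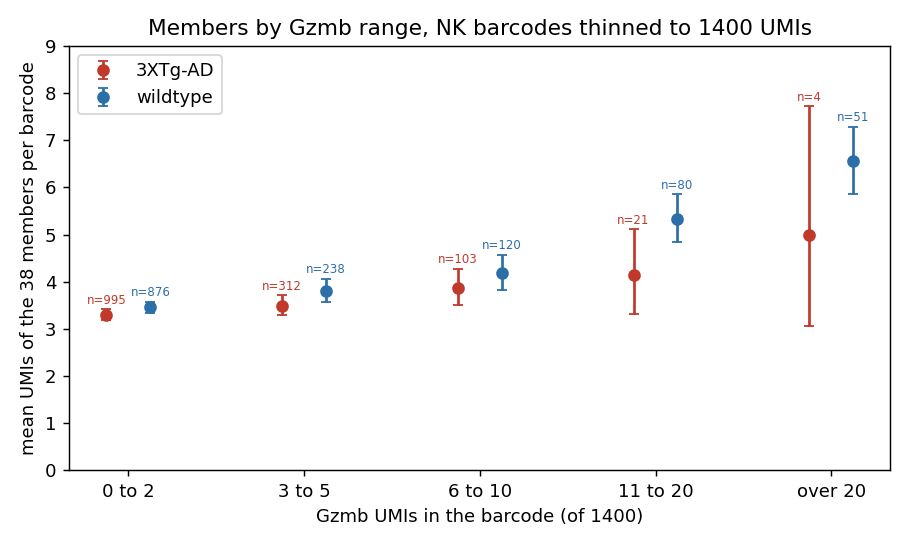
Mean UMIs of the 38 members per NK barcode thinned to 1400 UMIs, by the barcode's Gzmb UMIs, for 3XTg-AD (red, left) and wildtype (blue, right), with exact 95% counting intervals and the number of barcodes. Means run from 3.30 to 5.0 in 3XTg-AD and from 3.45 to 6.55 in wildtype barcodes.

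Barcodes with 10 or more Gzmb UMIs, a limit chosen after seeing the data, made up 33 of 1435 in 3XTg-AD (2.30%, Clopper-Pearson 1.59 to 3.21) and 149 of 1365 in wildtype (10.9%, 9.31 to 12.7). Against barcodes with 2 or fewer, the members were higher, at a ratio of 1.36 (1.14 to 1.60) in 3XTg-AD and 1.64 (1.52 to 1.77) in wildtype. Past 1.5-fold higher were 6 of 18 members in 3XTg-AD, against 17.4% of measured genes, and 16 of 20 in wildtype, against 11%. In wildtype, Nop58 had 34 UMIs in the Gzmb-high and 68 in the Gzmb-low barcodes, a ratio per barcode of 2.94 (1.89 to 4.50), and Dkc1 had 18 and 43, a ratio of 2.46 (1.34 to 4.36). Npm1, the most abundant member, was only at 1.15 (0.964 to 1.38), and Nop10 at 1.248 (0.973 to 1.59). In 3XTg-AD, where the Gzmb-high barcodes are few, Mrto4 had 10 and 42 UMIs, a ratio of 7.18 (3.21 to 14.5), Nolc1 was at 3.07 (1.08 to 7.08) and Npm3 at 2.23 (1.13 to 4.01), whereas Npm1 was at 0.881 (0.549 to 1.34).

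**Figure D3:**
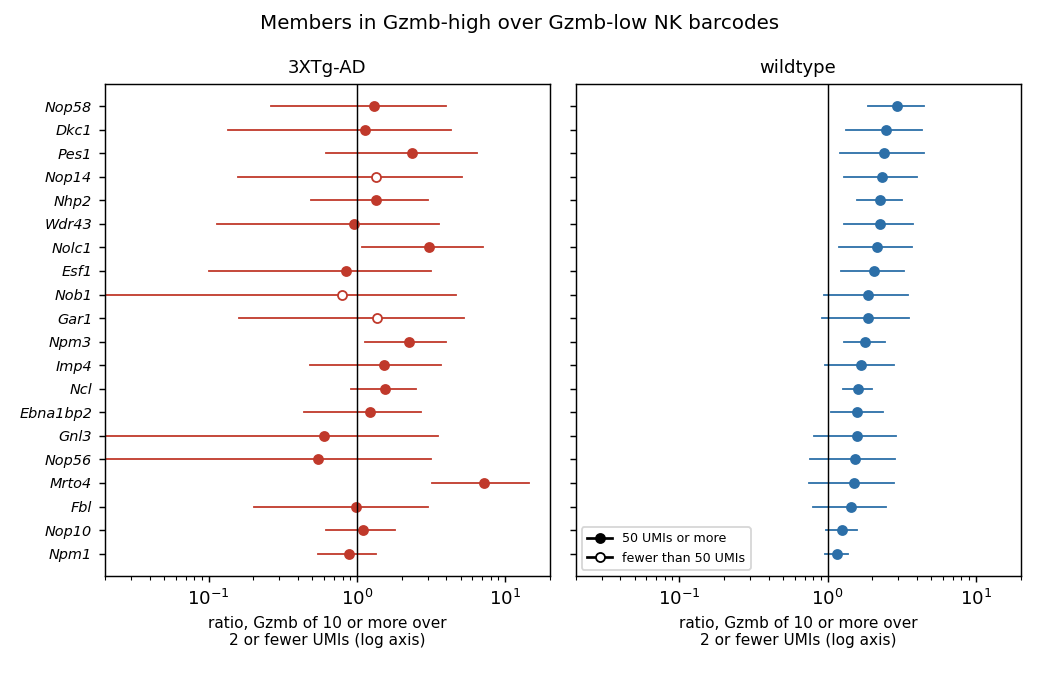
Ratio per barcode of single members in NK barcodes with 10 or more Gzmb UMIs over those with 2 or fewer, on a log axis, 3XTg-AD left and wildtype right, with exact 95% counting intervals that are cut at the left edge. Shown are the 20 members with 50 or more UMIs in the wildtype comparison, all of them right of 1 there; open points have fewer than 50 UMIs.

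Ribosomal protein genes went the other way over the same barcodes, at 0.841 (0.821 to 0.862) in 3XTg-AD and 0.80 (0.791 to 0.809) in wildtype, and the other ribosome biogenesis list was at 1.02 (0.887 to 1.17) and 1.21 (1.13 to 1.29). Over these barcodes 3 other lists had intervals above 1 in both libraries, and their part in the result was not tested. Heat shock genes were at 1.38 (1.252 to 1.52) in 3XTg-AD and 1.21 (1.13 to 1.3) in wildtype. Chaperonins and nuclear transport were at 1.23 (1.04 to 1.44) and 1.42 (1.31 to 1.55), and nucleotide and polyamine synthesis at 1.28 (1.02 to 1.59) and 1.42 (1.28 to 1.58). For tRNA synthetases the ratios were 1.24 (0.927 to 1.64) in 3XTg-AD and 1.35 (1.17 to 1.54) in wildtype. Mitochondrial ribosomal proteins were at 1.11 (0.985 to 1.24) and 1.09 (1.02 to 1.15). The 3XTg-AD intervals of both lists held 1. Interferon genes were at 0.90 (0.665 to 1.19) in 3XTg-AD and 2.69 (2.47 to 2.92) in wildtype, where 20 of the 149 Gzmb-high barcodes were interferon-high. Without interferon-high barcodes the ratio of the members was 1.36 (1.15 to 1.60) in 3XTg-AD and 1.80 (1.66 to 1.94) in wildtype. Myc was found in 3.03% of 3XTg-AD and 19.5% of wildtype Gzmb-high barcodes, against 3.28% and 4.19% of the remaining barcodes, and the 3XTg-AD share rests on 1 of 33 barcodes. Among barcodes without a Myc UMI the ratio was 1.37 (1.15 to 1.62) and 1.59 (1.46 to 1.73).

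Barcodes with a Myc UMI also held more member UMIs. In 3XTg-AD, 47 Myc-positive barcodes averaged 4.45 and 1388 Myc-zero barcodes 3.37 member UMIs, a ratio of 1.32 (1.14 to 1.52). In wildtype, 80 and 1285 barcodes averaged 4.61 and 3.75, a ratio of 1.23 (1.10 to 1.37). In 3XTg-AD 14 of 25 measured members passed 1.5-fold higher, against 14% of genes, and 5 of 25 in wildtype, against 10.4%. Lower by as much were 3 of 25 in 3XTg-AD, against 28.2%, and 0 in wildtype, against 21.5%. Ncl, nucleolin, had 11 UMIs in Myc-positive and 503 in Myc-zero barcodes of 3XTg-AD, a ratio of 0.646 (0.320 to 1.17), and the nucleolar phosphoproteins summed to 1.04 (0.799 to 1.33) in 3XTg-AD and 1.27 (1.07 to 1.49) in wildtype, and these 2 intervals of 3XTg-AD held 1. Nop14 had the highest ratio in 3XTg-AD, 3.69 (1.53 to 7.72), from 8 UMIs in Myc-positive barcodes, and Nop58 in wildtype was at 1.87 (1.02 to 3.20). Before thinning, Myc-positive barcodes were deeper, with median UMIs of 3061 against 2824.5 in 3XTg-AD and 3471 against 2955 in wildtype. In wildtype they also held more Gzmb, at 8.81 against 3.78 UMIs per barcode (2.33, 2.15 to 2.52). In 3XTg-AD, Gzmb was at 2.04 and 2.06 (0.989, 0.799 to 1.21). The part of depth and Gzmb in the Myc ratios was not tested. A single Myc UMI marks few of the cells that may carry the transcript at this depth.

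Set beside barcodes of the same Gzmb range, the difference between libraries was smaller in most ranges. With 0, 1 and 2 to 3 Gzmb UMIs, the ratio of the summed members, 3XTg-AD over wildtype, was 0.961 (0.894 to 1.03), 0.953 (0.868 to 1.05) and 0.935 (0.862 to 1.01), and each interval held 1. With 4 or more it was 0.798 (0.738 to 0.862), from means of 3.64 UMIs over 287 3XTg-AD and 4.57 over 384 wildtype barcodes. This last range is open at the top, where wildtype has more barcodes. Weighted to the wildtype make-up of these ranges, the ratio was 0.899, against 0.894 unweighted. In other ranges, of 0 to 2, 3 to 5, 6 to 10 and 11 or more Gzmb UMIs, it was 0.956, 0.919, 0.926 and 0.738. Only the interval of 11 or more, 0.597 to 0.904, lay below 1, over 25 3XTg-AD and 131 wildtype barcodes. Weighted over those ranges, the ratio was 0.915. Among barcodes without Myc the unweighted ratio was 0.897 (0.861 to 0.934). Left out of the NK sums, the barcodes of 10 or more Gzmb UMIs moved the ratio from all UMIs to 0.904 (0.880 to 0.927). Then 0 of 36 members were 1.5-fold lower, against 3.16% of genes.

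**Figure D4:**
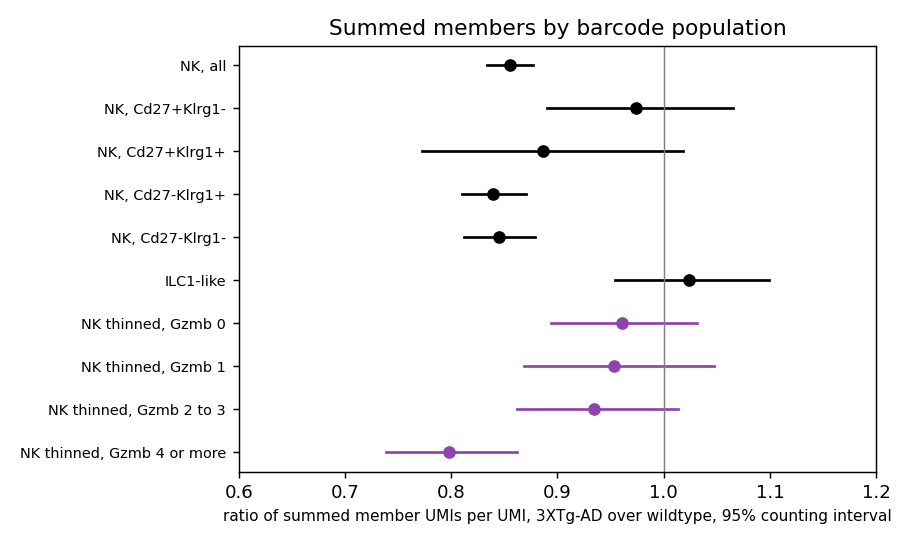
Ratio of the summed members per UMI, 3XTg-AD over wildtype, in NK barcodes, in their Cd27 and Klrg1 classes and in ILC1-like barcodes from all UMIs (black), and in NK barcodes thinned to 1400 UMIs by Gzmb range (purple). Lines are exact 95% counting intervals; the interval of Gzmb 4 or more, from 0.738 to 0.862, is the one of the purple set that lies below 1.

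Cd27 and Klrg1 mark NK maturation, with Cd27 on less mature and Klrg1 on more mature cells. A barcode without a UMI of a gene may still express it, so the classes are mixed. Barcodes with Klrg1 and no Cd27 numbered 683 in 3XTg-AD and 684 in wildtype, and their summed members were at 0.840 (0.810 to 0.870). In that class 7 of 34 measured members were at least 1.5-fold lower, against 3.51% of genes, among them Pno1 with 44 and 89 UMIs (0.504, 0.343 to 0.732) and Rrs1 with 49 and 97 (0.515, 0.358 to 0.734). The count was 2 of 24, against 3.80%, when thinned to 1400 UMIs. It was 0 of 13 at a minimum of 200 UMIs, where the share of genes is not given. Barcodes with neither gene, 700 and 648, were at 0.845 (0.813 to 0.879), with 2 of 33 members lower, against 3.58%. These were Rrp1b at 0.583 (0.350 to 0.955) and Mrto4 at 0.635 (0.451 to 0.889).

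Barcodes with Cd27 and no Klrg1 were few, 100 and 124, and their summed members were at 0.974 (0.891 to 1.07). Of 7 measured members, 1 was at least 1.5-fold lower, Npm3 with 31 and 59 UMIs (0.660, 0.413 to 1.04), against 5.07% of genes. Npm1 was at 0.991 (0.837 to 1.17) there. Barcodes with both genes, 38 and 29, had 3 measured members and a summed ratio of 0.887 (0.772 to 1.02). Whether the classes differ from each other was not tested, since each library is 1 sample.

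Between the less and the more mature class within a library, Npm1 was higher in both. Barcodes with Cd27 and no Klrg1 had 776 CPM of Npm1 and those with Klrg1 and no Cd27 had 557 CPM in 3XTg-AD, a ratio of 1.39 (1.21 to 1.59). In wildtype these were 783 and 647 CPM, a ratio of 1.21 (1.07 to 1.37). At 1400 UMIs per barcode the Npm1 ratio was 1.15 in 3XTg-AD and 1.33 in wildtype. The summed members were at 1.10 (1.02 to 1.18) in 3XTg-AD and 0.946 (0.887 to 1.01) in wildtype. In wildtype 10 of 31 measured members were at least 1.5-fold lower in the less mature class, against 10.8% of genes, and the small subunit factors summed to 0.716 (0.597 to 0.854). In 3XTg-AD 2 of 29 were lower, against 13.4%, and 5 higher, against 7.83%. Fewer members could be measured at matched depth. Thinned to 1400 UMIs, 3XTg-AD had 2 of 10 measured members lower, against 15.1% of genes, and 0 higher, against 8.26%. The median log2 ratio of members was -0.34, where it was 0.03 from all UMIs, and the summed ratio was 1.02 (0.903 to 1.15). Wildtype then had 2 of 13 lower, against 13.3%, with a median of -0.04 and a summed ratio of 0.967 (0.871 to 1.07), so both intervals held 1. Gzmb was at 0.337 (0.293 to 0.385) in 3XTg-AD and 0.252 (0.227 to 0.280) in wildtype over the same classes.

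Barcodes with 3 or more summed UMIs of Itga1, Cxcr6, Inpp4b, Gzmc and Tnfsf10, genes of type 1 innate lymphoid cells (ILC1), numbered 72 in 3XTg-AD and 90 in wildtype. They also carried Ncr1, at 1236 and 749 CPM, and Eomes, at 204 and 200 CPM, an NK gene, so they are called ILC1-like by the rule alone. A rule on UMI sums picks deep barcodes, with medians of 5555 and 5227 UMIs. The make-up of these barcodes differed, with Gzmc at 316 CPM in 3XTg-AD and 1479 CPM in wildtype, and Gzma at 1412 and 4246 CPM. Itga1, at 148 and 155 CPM, and Cxcr6, at 190 and 226 CPM, were nearer. Between these unlike sets the summed members did not differ detectably, at 1.02 (0.954 to 1.10). Past 1.5-fold were 0 of 9 measured members in the higher direction, against 4.42% of genes, and 0 in the lower, against 5.9%. Npm1 had 453 and 581 UMIs (0.957, 0.845 to 1.08), and Nhp2, at 0.728 (0.505 to 1.04), had the lowest ratio of the 9. Gzmb was at 0.311 (0.282 to 0.343) in these barcodes, and Myc, with 38 and 42 UMIs, at 1.11 (0.697 to 1.77).

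Set against NK barcodes of the same library, ILC1-like barcodes had more Npm1. It stood at 1103 CPM in ILC1-like and 597 CPM in NK barcodes of 3XTg-AD, a ratio of 1.85 (1.67 to 2.04), and at 1152 and 712 CPM in wildtype, a ratio of 1.62 (1.48 to 1.77). The summed members were at 1.37 (1.3 to 1.45) in 3XTg-AD and 1.14 (1.09 to 1.2) in wildtype. Without Npm1, Ncl, Nop10 and Npm3 these were 1.14 (1.05 to 1.249) and 0.972 (0.897 to 1.05). At least 1.5-fold higher were 8 of 34 members in 3XTg-AD, against 10.1% of genes, and 4 of 35 in wildtype, against 9.63%. Lower by as much were 1 of 34 in 3XTg-AD, against 30.9%, and 5 of 35 in wildtype, against 23%. These comparisons are between populations of unequal depth. Thinned to 1400 UMIs, the summed ratio was 1.32 (1.17 to 1.47) in 3XTg-AD and 1.09 (0.981 to 1.22) in wildtype, where the interval held 1. Of 25 members then measured in each library, 6 were at least 1.5-fold higher in 3XTg-AD, against 12.1% of genes, and 4 lower, against 37%. Their median log2 ratio there was 0.23, against -0.33 over all measured genes. In wildtype 2 were higher, against 12.4%, and 7 lower, against 30.6%. The median in wildtype was -0.21, near the -0.18 of all measured genes. Cytosolic ribosomal proteins were at 1.80 (1.79 to 1.81) and 1.5 (1.5 to 1.51), while the other ribosome biogenesis list stayed at 0.974 (0.928 to 1.02) and 0.983 (0.941 to 1.03).

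The genes outside the list whose thinned UMIs went most closely with the summed members over NK barcodes were Hsp90ab1, Hspe1, Nme2, Ptma, Eif5a, Polr2l, C1qbp, Pfn1, Actb and Atp5d, ranked by the lower Spearman correlation of the 2 libraries among 1912 genes, ribosomal protein genes left out. The correlation was 0.17 in 3XTg-AD and 0.19 in wildtype for the chaperone Hsp90ab1, and 0.10 and 0.11 for Atp5d, against a median of the lower correlation of -0.02 over all 1912. These likenesses are weak. Hsp90ab1 was higher in 3XTg-AD NK barcodes, at 2014 and 1217 CPM (1.65, 1.60 to 1.71), while C1qbp was lower, at 85.4 and 110 CPM (0.776, 0.679 to 0.887), so genes that go with the members over barcodes differed between libraries in both directions.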

How the data were processed

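The authors deposited a count matrix per library, with UMIs per gene and barcode and no normalization. Cell Ranger 3.1.0, STAR and the mm10 build are named in the submitters' processing notes, and 3.0.2 is the software version in the matrices, per the file headers. Barcodes with fewer than 300 genes (10 in 3XTg-AD, 45 in wildtype), over 10% mitochondrial UMIs (0 and 2) or called as doublets by Scrublet in scanpy 1.11.5 (22 and 13) were left out. NK barcodes needed 3 or more UMIs of Ncr1, Klrb1c, Klre1, Prf1 and Gzma, and ILC1-like barcodes were kept apart. Barcodes of other lineages (66 and 50) were left out by 3 or more UMIs of Cd3 genes, 5 or more of the B cell, microglia or monocyte markers, or over 1% erythroid or neutrophil UMIs. The monocyte list as first written held Ly6c2, which NK cells express. It removed 497 and 460 barcodes as other lineages, so Ly6c2 was dropped after seeing the data, and the first version is an alternative.

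UMIs were summed per library and scaled to CPM. A UMI count from the 5′ end needs no length scaling. A gene needed 50 UMIs over both sides of a comparison. Ratios have exact conditional binomial intervals and shares Clopper-Pearson intervals, at 95%; they leave out variation between cells and animals. Covariation was measured after thinning each barcode to 1400 UMIs. Ratios and intervals were tested on simulated data. The members, lists and markers were chosen with earlier results of these data known. All 38 members, Myc and Gzmb are reported; from each list up to 4 genes with the largest absolute log2 ratio could be named, and the 10 like genes follow the rule given with them. Coordinates of promoters are those of RefSeq on GRCm38.p6, and overlaps come from GENCODE on GRCm38. Of the fixed lists, 12 genes were not analysed here. Python 3.11.15, numpy 2.4.6, scipy 1.17.1, pandas 2.3.3 and matplotlib 3.10.9 were used.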

Additional observations from a re-analysis of the deposited data

Results flagged for a closer look

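Gnl3, which encodes the nucleolar GTPase nucleostemin, had ratios on opposite sides of 1 in the 2 populations. In ILC1-like barcodes it had 22 UMIs in 3XTg-AD and 13 in wildtype, a ratio of 2.08 (1.0 to 4.49), and in NK barcodes 154 and 202 UMIs, a ratio of 0.759 (0.611 to 0.941). The difference between the populations was not tested, and 35 UMIs in all stand behind the ILC1-like value, under the minimum of 50 used for counts of members.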

How the results depend on the processing

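No paired analysis was possible because each genotype has 1 library, and no replicate could be left out. Of 299 recomputed values 254 stayed close to the value reported and 45 moved. Values near 1 crossed it: the summed ratio ran from 0.932 to 1.06 in the class with Cd27 and no Klrg1, from 0.955 to 1.07 in ILC1-like barcodes, and from 0.870 to 1.01 for the less over the more mature class of wildtype. In NK barcodes the summed ratio ran from 0.823 to 0.904 over all alternatives: 0.894 thinned to 1400 UMIs, 0.830 with a total without ribosomal protein, mitochondrial and Gzm genes, 0.823 centred on the median gene and 0.904 without barcodes of 10 or more Gzmb UMIs. The count of members 1.5-fold lower was less stable, at 4 as reported, 0 when thinned, 0 with ILC1-like barcodes kept, 0 without the barcodes of 10 or more Gzmb UMIs, 2 at a minimum of 200 UMIs, 2 with Ly6c2 among the monocyte markers and 16 at the lower fold limit.

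In the class with Klrg1 and no Cd27 the ratio was 0.884 thinned and 0.879 with Ly6c2, and the count of lower members was 2 thinned, 0 at a minimum of 200, 4 with Ly6c2 and 17 at the lower fold limit. In the class with neither gene the ratio was 0.887 thinned and 0.808 centred, and the count was 0 thinned, 0 at 200 and 16 at the lower fold limit. In the class with Cd27 and no Klrg1 the count of 1 became 2 at a minimum of 20 and 0 when thinned, at a minimum of 200, with doublets kept, without dividing barcodes, with status on thinned barcodes and with Ly6c2. In ILC1-like barcodes the count of 0 became 2 at a minimum of 20, 1 with doublets kept, 1 without dividing barcodes, 1 at the lower fold limit, 1 with 2 or more gate UMIs and 2 with 5 or more. The recomputed counts of this paragraph stand without the share of all genes, so they only show how the counts move.

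Within libraries, the less over the more mature class was at 1.02 thinned in 3XTg-AD, and in wildtype at 0.870 with status on thinned barcodes and 1.01 with Ly6c2. ILC1-like over NK barcodes was at 1.21 in wildtype with 5 or more gate UMIs. Myc of 2 or more UMIs gave 2.82 in 3XTg-AD, from 4 barcodes. Gzmb of 10 or more over 2 or fewer gave 1.36 in 3XTg-AD and 1.64 in wildtype, against 1.13 and 1.32 for the top over the lowest Gzmb range, with 1.36 and 1.80 without interferon-high barcodes and 1.37 and 1.59 among Myc-zero barcodes. The cause of these moves was not tested. Depth limits single members: Polr1b and Rrp12 had fewer than 50 UMIs in NK barcodes as reported, 37 of 38 members reached 50 with ILC1-like barcodes kept, and 9 of 38 members reached 50 UMIs in ILC1-like barcodes.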
